A study of Mus musculus with 12 samples.

Results

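The 10 genes described are part of the MHC class I pathway and were measured in 12 tumours, among 35999 gene symbols in the table. They were taken by name and comprise the heavy chain genes H2-K1, H2-D1, H2-Q4, H2-Q7 and H2-T23, the light chain gene B2m, the peptide transport and loading genes Tap1, Tap2 and Tapbp, and the regulator Nlrc5. All 10 were present in the table and had enough counts to be tested. The tumours grew from AB1-HA, a mouse mesothelioma line, under the skin of male BALB/c mice aged 8 to 10 weeks. In the anti-CD4 group (6 tumours) mice received 100 µg of an antibody against CD4 on days -3, 0 and 7, with the tumour cells given on day 0, and in the PBS group (6 tumours) they received PBS. The tumours were removed on day 9 and their RNA was sequenced in bulk, so that fewer cells of a type and less RNA per cell cannot be told apart. No label ties a tumour to a separate mouse, and the p-values measure the spread between these tumours. AB1-HA is 1 line, so that the tumours share its genetic background.

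MHC class I molecules show peptides from inside a cell to CD8 T cells. A heavy chain pairs with beta-2 microglobulin, and the peptides, cut by the proteasome, are pumped into the endoplasmic reticulum by the TAP transporter and loaded with the help of tapasin. Interferon gamma raises the transcription of most of these genes, in part through NLRC5, which acts on class I promoters.

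**Figure D1:**
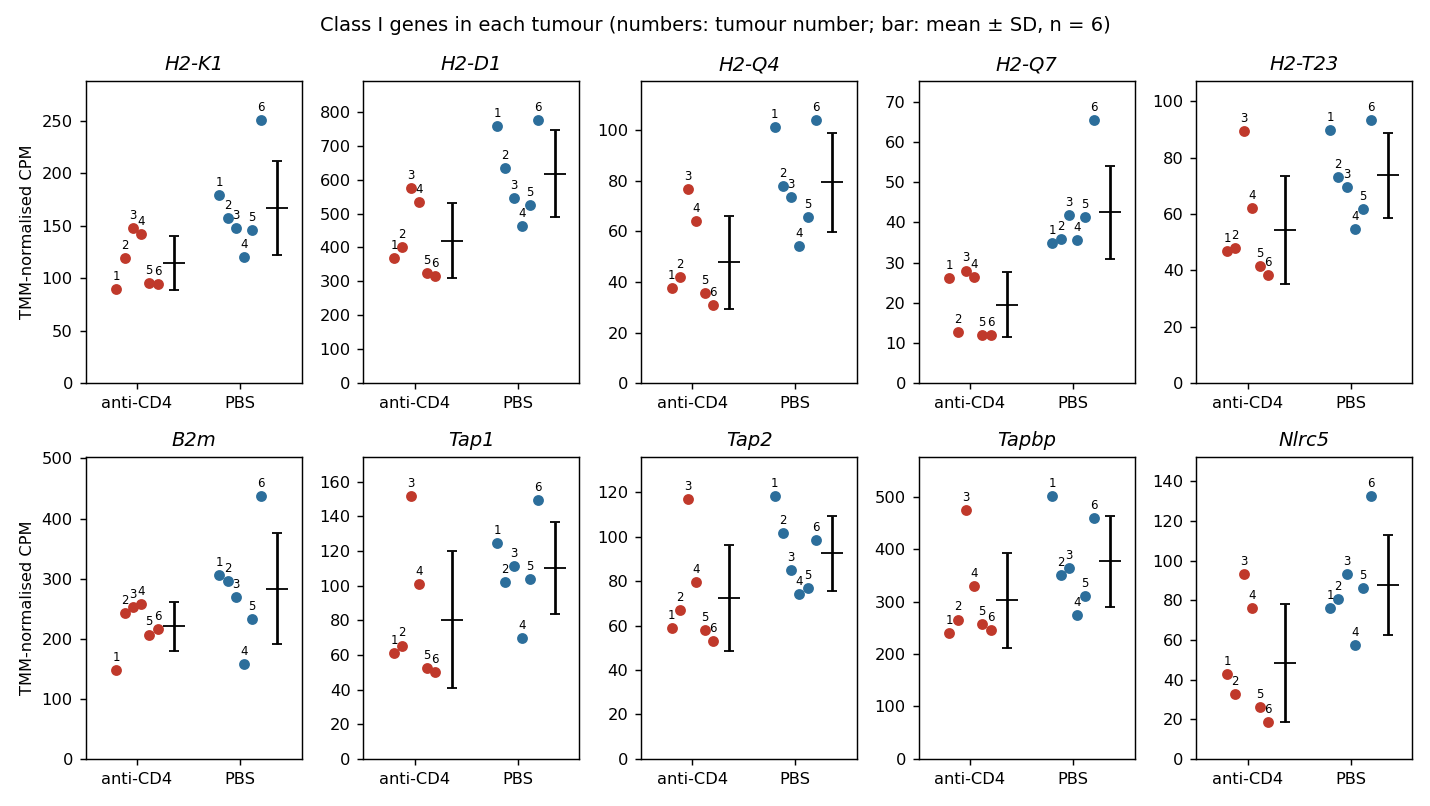
CPM, the counts relative to each TMM-scaled library total (vertical axis, starting at 0) of the 10 genes in each of 6 anti-CD4 tumours (red) and 6 PBS tumours (blue), with the tumour number above each point and the mean ± SD beside each group. H2-Q7 is the gene whose groups do not overlap, and anti-CD4 tumours 3 and 4 are the 2 highest of their group for all 10 genes.

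Promoter sequences of 8 of the 10 genes were found in RefSeq (GRCm38.p6) by symbol, the others being Tap2 and Nlrc5. The stretch before the start site is shown for 3 heavy chain genes and B2m, because the levels of these genes are compared below. The 3 heavy chain promoters also share most of the marked motifs. H2-K1 is at chr17:34000348-34000597 on the minus strand, H2-Q4 at chr17:35379367-35379616 on the plus strand, H2-Q7 at chr17:35438905-35439154 on the plus strand and B2m at chr2:122147437-122147685 on the plus strand, all 5′ to 3′. Capitals mark 4 motifs on either strand, the interferon regulatory factor core AANNGAAA, the CCAAT box, the kappa B site GGGATTCCC and TGACG, the core of the cyclic AMP response element. They were chosen after the sequences had been read, and no 2 of the marked matches overlap.
H2-K1: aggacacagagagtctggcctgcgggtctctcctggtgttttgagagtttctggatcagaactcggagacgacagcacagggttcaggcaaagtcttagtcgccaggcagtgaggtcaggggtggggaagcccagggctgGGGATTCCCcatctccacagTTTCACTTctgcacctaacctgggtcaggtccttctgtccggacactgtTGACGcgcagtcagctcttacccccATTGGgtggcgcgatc
H2-Q4: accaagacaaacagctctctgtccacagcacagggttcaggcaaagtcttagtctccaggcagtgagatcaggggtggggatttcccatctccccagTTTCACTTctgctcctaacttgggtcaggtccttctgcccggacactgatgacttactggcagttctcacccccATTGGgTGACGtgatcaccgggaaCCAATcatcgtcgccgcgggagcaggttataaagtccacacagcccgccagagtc
H2-Q7: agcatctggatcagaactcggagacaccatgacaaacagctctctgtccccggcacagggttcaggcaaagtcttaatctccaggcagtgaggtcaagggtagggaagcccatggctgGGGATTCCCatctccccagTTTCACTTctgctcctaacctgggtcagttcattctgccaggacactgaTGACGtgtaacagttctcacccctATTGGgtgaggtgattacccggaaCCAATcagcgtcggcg
B2m: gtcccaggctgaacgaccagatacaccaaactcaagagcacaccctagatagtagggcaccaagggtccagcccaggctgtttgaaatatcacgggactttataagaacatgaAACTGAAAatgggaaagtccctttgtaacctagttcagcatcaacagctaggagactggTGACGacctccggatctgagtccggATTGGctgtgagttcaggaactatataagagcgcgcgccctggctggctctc

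AANNGAAA was found within 250 bases of the start in 6 of the 8 promoters, and in 21.3% of 32851 promoter entries of the same length. For Tapbp, H2-D1 and H2-T23 the start used lay 3579, 364 and 154 bases inside the gene as placed by GENCODE. CCAAT was found in 8 of 8, against 33.8% of all entries, and TGACG in 6 of 8, against 17.8%. GGGATTCCC was found in H2-K1, H2-D1 and H2-Q7, against 0.301% of all entries. Only exact matches were counted, so the similar stretch ggggatttccc of H2-Q4 was not marked. In H2-Q4 the marked TGACG comes after ATTGG, whereas in H2-K1 and H2-Q7 it comes before. B2m, H2-K1, H2-D1, H2-Q4 and H2-Q7 each held AANNGAAA, CCAAT and TGACG together, which 1.08% of all entries did. The promoters of these 4 heavy chain genes resemble each other in sequence, so their matches are not separate occurrences. A match describes the letters and is not a measured binding site. The sequences are of the C57BL/6J reference strain, and BALB/c mice carry other H2 alleles.

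The 5 heavy chain genes overlap in sequence, which limits how far their counts can be told apart. With 31-base words of the GENCODE M21 transcripts, 53% of the words of H2-Q4 and 39.2% of those of H2-Q7 also occurred in transcripts of other genes. The gene sharing most words was H2-Q6 for H2-Q4 and H2-Q10 for H2-Q7. The share was 26.9% for H2-D1, 25.8% for H2-T23 and 22.8% for H2-K1. B2m shared none and Nlrc5 0.579%, and their deposited counts were whole numbers. Tap1 shared 4.09%, mostly with Psmb9, and Tap2 14.3% and Tapbp 26.9%, mostly with Gm15821 and Gm19412 that overlap them on the opposite strand. The strand setting of the counting, not given in the sources used here, bears on these overlaps, and counts of these genes are uncertain.

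In every one of the 10 genes the estimate was lower in anti-CD4 tumours than in PBS tumours, and 1 of them, H2-Q7, passed the test. The test was the edgeR quasi-likelihood test over 17940 genes, with calls made where the Benjamini-Hochberg adjusted value was under 0.05. Of all tested genes, 2.33% were called lower and 2.95% higher, and 50.1% had a negative log2 fold change, so that 1 of 10 called lower and 0 of 10 called higher stand beside these shares. The 10 log2 fold changes ran from -1.13 to -0.32 with a median of -0.50, and the median of all tested genes was -0.00033. An unadjusted p under 0.05 was reached by 5 of the 10 genes and by 28% of all genes in either direction.

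**Figure D2:**
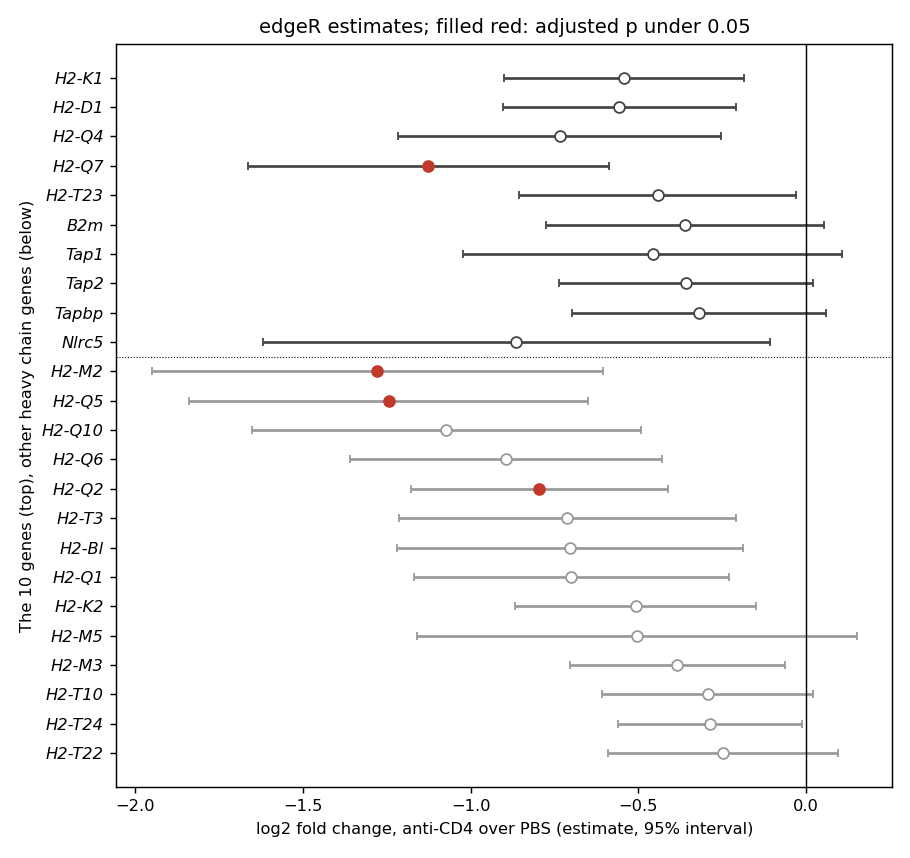
Log2 fold change of anti-CD4 over PBS tumours from edgeR (horizontal axis) for the 10 genes (top) and 14 other tested class I heavy chain genes (below the dotted line, by size), with bars of 1.96 SE either side. All 24 estimates lie below 0, and the filled red points (H2-Q7, H2-M2, H2-Q5 and H2-Q2) had an adjusted p under 0.05.

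H2-K1 and H2-D1 encode classical heavy chains, which present peptides to CD8 T cells. H2-K1 (chr17:33996017-34000347, minus strand, GRCm38) had 89.7, 119, 148, 142, 95.6 and 94.4 CPM in anti-CD4 tumours 1 to 6, and 179, 158, 148, 120, 146 and 250.4 CPM in PBS tumours 1 to 6. The 4 tumours anti-CD4 1, 2, 5 and 6 lay below every PBS tumour, while anti-CD4 3 and 4 lay within the PBS range. The mean was 115 ± 25.5 CPM in anti-CD4 tumours and 167 ± 45.1 CPM in PBS tumours (SD, n = 6 each). The log2 fold change of H2-K1 was -0.54 (SE 0.18), and its edgeR adjusted p of 0.0903 did not pass.

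H2-D1 (chr17:35262730-35267499, plus strand) had 368, 400.5, 577, 533, 325 and 315 CPM in anti-CD4 tumours 1 to 6, and 759, 634, 546, 464, 524 and 774 CPM in PBS tumours 1 to 6. Again anti-CD4 3 and 4 lay within the PBS range and the other 4 below it. H2-D1 averaged 419.7 ± 110 CPM in anti-CD4 tumours and 617 ± 128 CPM in PBS tumours (SD, n = 6 each), and the estimate of -0.56 on the log2 scale (SE 0.18) did not pass (edgeR adjusted p = 0.0762).

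H2-Q7 encodes Qa-2, a nonclassical heavy chain, and H2-Q4 encodes another chain of the Q region. H2-Q7 (chr17:35439155-35443773, plus strand) had 26.2, 12.7, 28.0, 26.4, 11.96 and 11.9 CPM in anti-CD4 tumours 1 to 6, and 35.0, 35.9, 41.8, 35.7, 41.4 and 65.4 CPM in PBS tumours 1 to 6. Every anti-CD4 tumour was below every PBS tumour, a pattern shown by 1.19% of all tested genes, and anti-CD4 2, 5 and 6 were lower than the other anti-CD4 tumours. H2-Q7 fell to 19.5 ± 8.07 CPM in anti-CD4 tumours, against 42.5 ± 11.6 CPM in PBS tumours (SD, n = 6 each), or by 1.13 on the log2 scale (SE 0.27) with an edgeR adjusted p of 0.0423. This call was lost in 12 of 21 alternatives, where adjusted p over all 21 ran from 0.00263 to 0.349 and the log2 fold change from -1.47 to -0.85. It was lost without anti-CD4 2, 5 or 6 and without PBS 2, 3, 4, 5 or 6, each left out singly.

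H2-Q4 (chr17:35379617-35385290, plus strand) had 37.5, 41.9, 76.7, 64.1, 35.6 and 31.02 CPM in anti-CD4 tumours 1 to 6, and 101, 78.0, 73.5, 54.2, 65.8 and 104 CPM in PBS tumours 1 to 6. The groups overlapped through anti-CD4 3 and 4. The edgeR estimate for H2-Q4 was -0.73 on the log2 scale (SE 0.25), and with an adjusted p of 0.0901 it did not pass. Per tumour the ratio of H2-Q7 to H2-Q4 was 0.303 to 0.698 in anti-CD4 tumours and 0.345 to 0.659 in PBS tumours, with overlap between the groups. Whether the 2 genes differed in their fold change was not tested.

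H2-T23 encodes Qa-1, the nonclassical chain bound by the CD94 and NKG2 receptors of NK cells. H2-T23 (chr17:36029773-36032855, minus strand) had 47.0, 47.9, 89.5, 61.996, 41.4 and 38.2 CPM in anti-CD4 tumours 1 to 6, and 89.8, 73.1, 69.6, 54.8, 61.9 and 93.2 CPM in PBS tumours 1 to 6. Anti-CD4 3 was above 4 of the PBS tumours, while 4 anti-CD4 tumours lay below all of them. With an edgeR estimate of -0.44 on the log2 scale (SE 0.21) and an adjusted p of 0.195, H2-T23 did not pass.

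B2m (chr2:122147686-122153083, plus strand) encodes beta-2 microglobulin, the light chain shared by all class I molecules. It had 148, 243, 253, 257, 207 and 216 CPM in anti-CD4 tumours 1 to 6, and 305, 296, 269.5, 158, 233 and 437 CPM in PBS tumours 1 to 6. The groups overlapped widely, since PBS 4 was below 5 of the anti-CD4 tumours. The B2m estimate from edgeR was -0.36 on the log2 scale (SE 0.21, adjusted p = 0.279), and the interval of 1.96 SE either side ran from -0.77 to 0.054. The ratio of H2-K1 to B2m was 0.522 ± 0.0686 in anti-CD4 tumours and 0.605 ± 0.0837 in PBS tumours, and that of H2-D1 to B2m was 1.92 ± 0.419 in anti-CD4 tumours and 2.27 ± 0.405 in PBS tumours (SD, n = 6 each), both with overlapping groups.

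Tap1 and Tap2 encode the chains that together form the TAP peptide transporter, and Tapbp encodes tapasin, which holds empty class I molecules at the transporter. Tap1 (chr17:34187553-34197225, plus strand) had 60.9, 65.4, 152, 101, 52.6 and 50.2 CPM in anti-CD4 tumours 1 to 6, and 125, 102, 111, 69.5, 104 and 149 CPM in PBS tumours 1 to 6. Anti-CD4 3 was the highest of all 12 tumours, whereas anti-CD4 1, 2, 5 and 6 lay below every PBS tumour. The Tap1 estimate from edgeR was -0.46 on the log2 scale (SE 0.29, adjusted p = 0.315).

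Tap2 (chr17:34203527-34216321, plus strand) had 59.0, 66.8, 117, 79.7, 58.1 and 52.9 CPM in anti-CD4 tumours 1 to 6, and 118, 102, 85.2, 74.4, 76.7 and 98.7 CPM in PBS tumours 1 to 6. Tap2 was estimated by edgeR at -0.36 on the log2 scale (SE 0.19, adjusted p = 0.243). Tapbp (chr17:33915899-33929292, plus strand) had 239.7, 266, 474, 330.4, 258 and 247 CPM in anti-CD4 tumours 1 to 6, and 501, 351, 364, 274, 311 and 459 CPM in PBS tumours 1 to 6. Tapbp was estimated by edgeR at -0.32 on the log2 scale (SE 0.19, adjusted p = 0.296). In both genes 4 anti-CD4 tumours lay below every PBS tumour and anti-CD4 3 was near the top of the PBS range, and none of the 3 peptide transport and loading genes passed.

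Nlrc5 (chr8:94434356-94527272, plus strand) encodes the regulator that drives class I transcription and varied more than the other genes among anti-CD4 tumours. It had 42.7, 32.6, 93.3, 76.3, 26.1 and 18.7 CPM in anti-CD4 tumours 1 to 6, and 76.0, 80.5, 93.5, 57.5, 86.3 and 133 CPM in PBS tumours 1 to 6. The highest anti-CD4 value was 4.99 times the lowest, against 2.31 times among PBS tumours, and for the other 9 genes this ratio ran from 1.65 to 3.02 in anti-CD4 tumours. Nlrc5 averaged 48.3 ± 29.8 CPM in anti-CD4 tumours and 87.7 ± 25.1 CPM in PBS tumours (SD, n = 6 each). The Nlrc5 estimate of -0.86 on the log2 scale (SE 0.39) did not pass (edgeR adjusted p = 0.174).

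**Figure D3:**
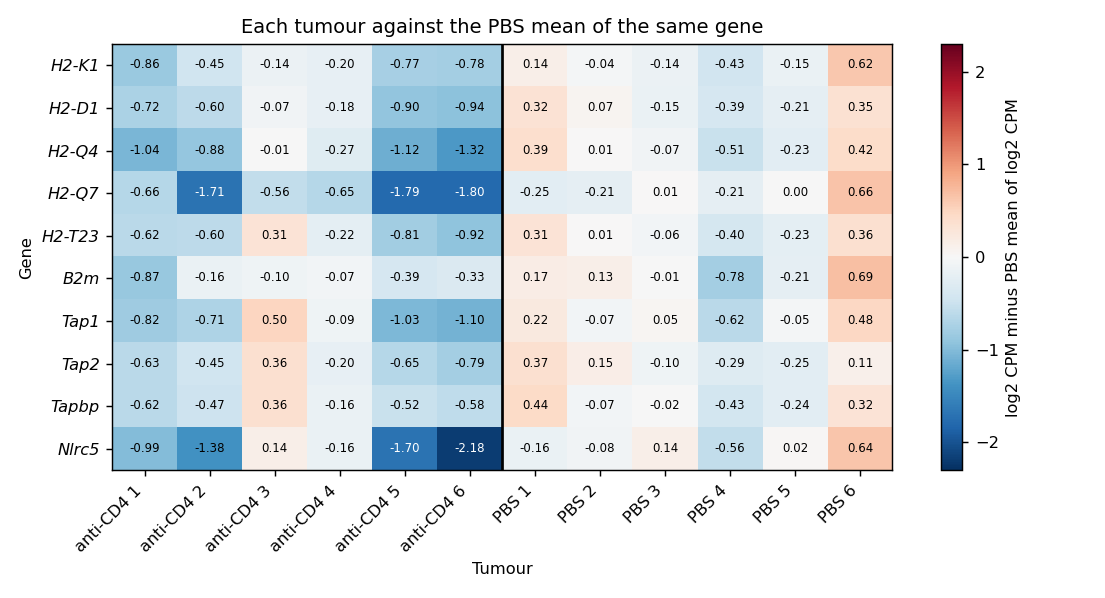
Log2 CPM of each of the 10 genes (rows) in each tumour (columns, anti-CD4 left of the line, PBS right) minus the mean log2 CPM of that gene over the 6 PBS tumours, printed in each cell. The lowest value is -2.18, for Nlrc5 in anti-CD4 6, and in anti-CD4 3 the values of H2-T23, Tap1, Tap2, Tapbp and Nlrc5 lie above 0.

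The same tumours were high or low for most of the 10 genes. Anti-CD4 3 was the highest tumour of its group for 9 of the 10 genes, and anti-CD4 4 for the other, B2m. Anti-CD4 6 was the lowest of its group for 7 genes and anti-CD4 1 for 3. Anti-CD4 1 lay below all PBS tumours for 10 genes, and anti-CD4 2, 5 and 6 each for 9, the exception being B2m. The share of all tested genes that did so in each single tumour was not counted. The 10 genes moved together, so they are not separate observations. Among PBS tumours, PBS 6 was highest for 8 genes and PBS 4 lowest for 9. Over the 45 pairs of genes, Pearson's r of log2 CPM across the 12 tumours, given as a description, had a median of 0.90 and ran from 0.45 for B2m with H2-Q7 to 0.99 for H2-D1 with H2-Q4. With each group's mean removed the median was 0.87. The pairs share libraries, and the heavy chain genes share reads.

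The number of these genes called differed with the tumours left out and with the tool. Without anti-CD4 3, edgeR called 5 of the 10 genes lower, namely H2-D1, H2-Q4, H2-Q7, H2-T23 and Tap2, with 2.03% of all tested genes called lower in that fit. Without both anti-CD4 3 and 4, a pair chosen with their values known, it called 9 lower, the exception being B2m, with 3.86% of all genes. With all 12 tumours, DESeq2 called H2-D1, H2-K1, H2-Q4 and H2-Q7 lower (6.38% of all genes), and limma voom with sample weights called these and Nlrc5 (17.7% of all genes). A fit with the library total as covariate called 0 of the 10 genes, and so did 1 that pairs tumours by number. Anti-CD4 libraries were deeper, at 34.5 M to 62.1 M counts, against 30.7 M to 41.9 M counts in PBS libraries. Depth thus moved with the groups, and the effects of depth and group cannot be told apart. With the covariate all 10 estimates were negative, with edgeR adjusted p from 0.349 to 0.740. The log2 fold change was then nearer to 0 for H2-Q7, at -0.85, and further from 0 for B2m, at -0.57.

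Levels were compared between genes per kb of the longest coding transcript of each, which need not be the one expressed. Because the H2 alleles of BALB/c differ from those of the build, the places of the heavy chain genes in this order are uncertain. B2m and H2-D1 had the highest levels, at 256 ± 47.4 and 199.6 ± 52.3 CPM per kb in anti-CD4 tumours and 329 ± 108 and 294 ± 61.0 CPM per kb in PBS tumours (SD, n = 6 each). Their order was not the same in every tumour, with B2m above H2-D1 in 9 of 12. Tapbp, H2-K1 and H2-T23 followed, and each was above the next in 12 of 12 tumours, at PBS means of 129.98, 103 and 50.1 CPM per kb. H2-T23 was in turn above H2-Q4 in 12 of 12 tumours, and H2-Q4 above Tap1 in 11 of 12. H2-Q7 and Tap2 had no fixed order, with H2-Q7 higher in 1 of 6 anti-CD4 tumours and in 4 of 6 PBS tumours. Nlrc5 was lowest, at 6.37 ± 3.94 CPM per kb in anti-CD4 tumours and 11.6 ± 3.31 CPM per kb in PBS tumours.

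**Figure D4:**
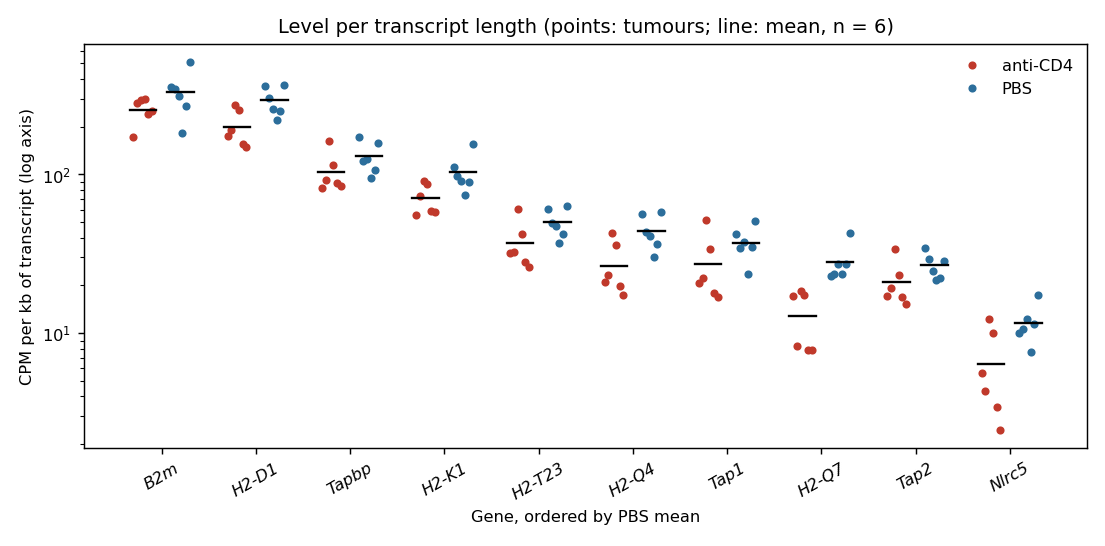
CPM per kb of the longest coding transcript (vertical log axis) of the 10 genes, ordered by PBS mean, with 1 point per tumour (anti-CD4 red, left of PBS blue) and a line at each group mean (n = 6). Mean levels in PBS tumours span 329 CPM per kb for B2m to 11.6 CPM per kb for Nlrc5.

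Other class I heavy chain genes had negative estimates as well. Of 14 tested, 3 fell and none rose in edgeR, all 14 estimates were negative, and the median log2 fold change was -0.70. DESeq2 called 8 of them lower and limma voom 12. Over all 17940 genes, edgeR called 2.33% lower, DESeq2 6.38% and limma voom 17.7%. The genes called higher numbered 529, 1318 and 2809 in the same order. Calls in each of the lists below stand beside these same values. H2-Q5 fell by 1.24 on the log2 scale (SE 0.30), to 7.41 ± 3.15 CPM in anti-CD4 tumours against 17.5 ± 6.38 CPM in PBS tumours (SD, n = 6 each; edgeR adjusted p = 0.0409). H2-Q2 fell by 0.80 (SE 0.20, edgeR adjusted p = 0.0376). H2-M2, which is expressed at a low level of 0.312 CPM in anti-CD4 and 0.746 CPM in PBS tumours, fell by 1.28 (SE 0.34, edgeR adjusted p = 0.0464). H2-Q6 and H2-Q10 did not pass in edgeR, at log2 fold changes of -0.89 and -1.07 (edgeR adjusted p = 0.0508 and 0.0559), nor did H2-Q1 (-0.70) and H2-T3 (-0.71). H2-Q10 is known as a secreted chain made in the liver, and its reads here are uncertain for the sequence it shares with H2-Q7. Adding up the counts of all H2-D1, H2-K, H2-Q, H2-T and H2-M genes gives a level that does not depend on how reads were split among these genes. The sum was 840.2 ± 226 CPM in anti-CD4 tumours and 1245 ± 261 CPM in PBS tumours (SD, n = 6 each). For the sum the edgeR estimate was -0.57 on the log2 scale (SE 0.18), with anti-CD4 3 and 4 within the PBS range.

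The peptide loading and trimming genes outside the 10 had estimates mostly on the other side of 0. Of 13 tested, 0 were called by edgeR in either direction, 3 had an unadjusted p under 0.05, and 2 had a negative value, with a median log2 fold change of 0.095. Ide, a peptide-degrading protease, was at 0.17, Sec61a1, a channel subunit of the endoplasmic reticulum, at 0.17, Lnpep, an aminopeptidase of cross-presentation, at 0.14, and Canx, the chaperone calnexin, at 0.13. DESeq2 called Ide higher, and limma voom called these 4 genes higher. Of 7 immunoproteasome and activator genes, 0 were called by edgeR, 0 had an unadjusted p under 0.05, and the median was -0.24. The interferon-induced catalytic subunits Psmb9, Psmb8 and Psmb10 were at -0.67 (SE 0.33), -0.53 (SE 0.32) and -0.36 (SE 0.27), and Psme1, a subunit of the proteasome activator, at -0.24 (SE 0.16). DESeq2 called 0 of the 7 as well, and limma voom called Psmb9 lower. The 3 constitutive catalytic subunits Psmb5, Psmb6 and Psmb7 were at 0.16, 0.16 and 0.075, with 0 called by edgeR or DESeq2, 0 at an unadjusted p under 0.05 and Psmb5 called higher by limma voom.

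Of 17 transcription regulators of class I genes, 1 fell and none rose in edgeR, with a median of -0.021. Irf8, an interferon regulatory factor of myeloid cells, fell by 0.80 (SE 0.17, edgeR adjusted p = 0.0288). Irf2, another member of the family, was at -0.20 (SE 0.07), Rfx5, a subunit of the factor that binds the X box, at -0.13, Atf1 at 0.15 and Nfyc, a subunit of the CCAAT box factor, at 0.15, and none of these passed in edgeR. DESeq2 called Irf8 lower and Atf1 higher, and limma voom called Irf8 and Irf2 lower and Atf1 and Nfyc higher. Of 12 genes of the interferon gamma signal and its targets, 0 were called by edgeR and 3 had an unadjusted p under 0.05, with a median of -0.16. Ifng itself was at 0.126 ± 0.133 CPM in anti-CD4 tumours and 0.414 ± 0.228 CPM in PBS tumours (SD, n = 6 each), and the edgeR estimate of -1.71 on the log2 scale (SE 0.62) did not pass, with an adjusted p of 0.099. Jak1, a kinase of the receptor, was at 0.19, Socs1, a feedback inhibitor, at -0.34, and Ifngr1, a receptor chain, at -0.17, and these did not pass in edgeR. The targets Cxcl9, Cxcl10, Gbp2 and Gbp3 were nearer to 0 for their spread, at -0.42 (SE 0.83), -0.14 (SE 0.43), -0.11 (SE 0.53) and -0.096 (SE 0.47). Cxcl9 was at 1.63 to 77.4 CPM in anti-CD4 and 7.91 to 53.2 CPM in PBS tumours. Gbp2 was at 18.1 to 160 CPM and 28.1 to 89.5 CPM, and anti-CD4 3 was the highest of all tumours for both. DESeq2 called Jak1 higher, and limma voom called Jak1 higher and Ifng, Socs1, Cd274 and Ido1 lower.

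Estimates of the class I related molecules fell on both sides of 0. Of 9 tested, 1 rose in edgeR, and 3 had a negative value, with a median log2 fold change of 0.11. Mr1, which presents vitamin metabolites to MAIT cells, rose to 12.7 ± 1.12 CPM in anti-CD4 tumours, against 9.84 ± 1.05 CPM in PBS tumours (SD, n = 6 each), or by 0.37 on the log2 scale (SE 0.09) with an edgeR adjusted p of 0.0365. Hfe, a regulator of iron uptake, was at -0.59, Ulbp1 and H60b, ligands of NKG2D, at 0.15 and 0.11, and Cd1d1, which presents lipids to NKT cells, at -0.52, and none of these passed in edgeR. DESeq2 called Hfe lower and Mr1 higher, and limma voom called Hfe and Cd1d1 lower and Mr1 and Ulbp1 higher. The next list held receptors of class I and related receptors, not all of which bind class I. Of 9 tested, 0 were called by edgeR and 5 had an unadjusted p under 0.05, with a median of -0.57. Klrd1, which encodes CD94, was at -1.42 (SE 0.46, edgeR adjusted p = 0.0753), Cd160 at -0.53, Klrc2 at -1.15 and Lilrb4a at -0.57. DESeq2 called Klrd1 lower, and limma voom called these 4 genes and Klrk1 lower. Among 11 genes of class II presentation the median was -1.01, and those that fell in edgeR were H2-Aa (-1.17, edgeR adjusted p = 0.0464) and H2-Eb1 (-1.24, edgeR adjusted p = 0.0461), while Cd74, H2-Ab1, Ctss and Ciita, at -1.23, -1.13, -0.77 and -1.01, did not pass in edgeR. DESeq2 and limma voom each called 9 of the 11 lower, these 6 genes included.

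Markers of several immune cell types had negative estimates. In anti-CD4 3 and 4 the leukocyte, T cell, CD8 T cell, NK cell and dendritic cell sums were above those of the other anti-CD4 tumours. The macrophage and B cell sums did not follow this order. The macrophage sum was 1577 and 1716 CPM in anti-CD4 3 and 4, against 1584 CPM in anti-CD4 1 and 1720 CPM in anti-CD4 6. The B cell sum of anti-CD4 3 was the lowest of its group, and that of anti-CD4 4 was below anti-CD4 5. Of 5 leukocyte markers, edgeR called 1 lower, Laptm5, DESeq2 2 and limma voom 3, and their summed level was 276 to 393 CPM in anti-CD4 tumours and 321 to 568.5 CPM in PBS tumours. In anti-CD4 3 and 4 the leukocyte sum was 373 and 393 CPM, and in the other 4 anti-CD4 tumours it was below every PBS tumour. Of 6 T cell markers, edgeR called 2 lower, Cd5 and Cd2, DESeq2 3 and limma voom 6, and the sum was 3.14 to 18.2 CPM in anti-CD4 tumours and 15.5 to 34.4 CPM in PBS tumours. The 4 NK cell markers, of which edgeR called 0 (3 at an unadjusted p under 0.05), DESeq2 2 and limma voom 4, summed to 10.5 and 10.13 CPM in anti-CD4 3 and 4, to 1.496 to 4.26 CPM in the other anti-CD4 tumours, and to 7.25 to 21.6 CPM in PBS tumours. In anti-CD4 4 the NK cell markers differed, with Nkg7 and Prf1 at 5.85 and 2.63 CPM, within the PBS range. Ncr1 and Klrb1c in that tumour, at 1.09 and 0.557 CPM, were below every PBS tumour. Of 6 dendritic cell markers, edgeR called 3 lower, Flt3, Siglech and Zbtb46, and DESeq2 and limma voom each 5, and the sum was 20.2 to 34.9 CPM in anti-CD4 tumours and 33.5 to 64.0 CPM in PBS tumours. Of 7 macrophage markers, 0 were called by edgeR or limma voom and 2 by DESeq2, with 2 at an unadjusted p under 0.05, and their sum was 1467 to 1720 CPM in anti-CD4 tumours and 1476 to 2370 CPM in PBS tumours. Of 5 fibroblast markers, edgeR called 2 higher, Lum and Pdgfra, and DESeq2 and limma voom each 4, and the sum was 21642 to 27506 CPM in anti-CD4 tumours and 11676 to 21558 CPM in PBS tumours. Of 2 CD8 T cell, 3 B cell, 4 endothelial, 4 adipocyte and 4 skeletal muscle markers tested, edgeR, DESeq2 and limma voom called none, and of 3 mesothelial markers each of these tools called 1 higher, Pdpn. Of those not called, Tek alone had an unadjusted edgeR p under 0.05. No marker of these lists was at 0 in all tumours, and the part of these cell types in the class I result was not tested. Cd4, the target of the antibody, was at 0.618 to 2.13 CPM in anti-CD4 tumours and 4.35 to 9.93 CPM in PBS tumours. Of the tumour line's lineage, Msln was present at 92.6 to 155 CPM in anti-CD4 and 94.7 to 140.0 CPM in PBS tumours, whereas Krt18, Krt19 and Upk3b were too low to be tested.

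The genes whose levels followed the class I genes most closely included several known from lymphocytes. Leaving out the 10 genes and the pathway and marker lists, genes among the highest by Pearson's r with the mean log2 CPM of the 10 genes over 12 tumours were Il12rb1 (r = 0.98) and Il2rb (0.97), chains of the interleukin 12 and interleukin 2 receptors, Gzma, a granzyme (0.97), and Nup210, a nuclear pore protein (0.97). None of these 4 passed the edgeR test between groups (adjusted p of 0.0519 to 0.162). With only the 10 genes left out, the closest single gene was found for each. Nlrc5 was closest to Prf1, which encodes perforin (r = 0.99), Tap1 to Zbp1, an interferon-induced nucleic acid sensor (0.99), H2-T23 and H2-Q4 to Psmb9 (0.98 each), and Tapbp to Psmb10 (0.98). H2-Q7 was closest to H2-Q5 (0.99) and H2-K1 to H2-K2 (0.98), which are similar in sequence. H2-D1 was closest to Sash3, a lymphocyte signalling adaptor (0.98), which edgeR called lower, Tap2 to Hk3, a hexokinase (0.97), and B2m to Gm8909 (0.96). These values describe the 12 libraries, which share depth and cell content.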

How the data were processed

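Total RNA of the 12 tumours went through a depletion step that lists globin RNA and several organisms and was read on a NovaSeq as 100-base pairs, per the labels. Tools named in the submitters' processing notes are bcl2fastq 2.20.0.422 and kallisto, whose version is not listed, with GRCm38.p6 as build. For each gene symbol the deposited table holds estimated counts from the authors, with 35.7% to 37.9% of values not whole and totals of 30.7 M to 62.1 M counts per tumour. Annotation, strand setting and filters were not given in the sources used here.

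Counts were rounded, filtered with filterByExpr, normalised by TMM, and compared by the quasi-likelihood test of edgeR 4.0.16 (R 4.3.3, robust, no covariate), with p-values adjusted over 17940 genes. The SE, approximate, is the size of the log2 fold change divided by the root of F. CPM uses TMM library sizes, and log2 CPM a prior count of 2. The anti-CD4 and PBS contrast was tested on simulated data of 17759 genes, where calls were made for 53.7% of true 1.5-fold changes, 74.6% at 2-fold and 93.9% at 4-fold. Tumours of the same group differed by more than sampling noise (chi-square per degree of freedom of 8.54 to 67.7 over 30 pairs). Alternatives were RLE and upper quartile scaling, DESeq2 1.42.0, limma 3.58.1 voom, other filters, a replicate block, the library total as a covariate, left-out tumours, summed heavy chain counts and a prior count of 0.5. Coordinates come from GENCODE M21.

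The genes and lists were chosen with earlier results of these data known. Named in any case were the 10 genes, then called members of each list with up to 4 others of smallest p, and the most correlated genes, of which 1 is not reported here. The ratios, the markers named singly and the rest of the values were chosen after the values were seen.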

Additional observations from a re-analysis of the deposited data

Results flagged for a closer look

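H2-Q7 in PBS 6, at 65.4 CPM, stood apart from the other PBS tumours, of which the next was PBS 3 at 41.8 CPM. The gap was 0.775 of the range of the group, above Dixon's critical value of 0.625 for 6 samples. Of 20 sets of 6 values examined, this was the 1 set with such a gap, and chance gives about 5% of sets. PBS 6 was the highest PBS tumour for 8 of the 10 genes, and without it the H2-Q7 log2 fold change was -0.96 (edgeR adjusted p = 0.0899, against a range of 0.00263 to 0.349 over all alternatives).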

How the results depend on the processing

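All 10 genes kept a negative log2 fold change in each of the 21 alternatives, and no direction reversed. The count of these genes called lower (1 with all tumours in edgeR) was 4 with DESeq2, 5 with limma voom, 9 without both anti-CD4 3 and 4, and 0 with no filter, upper quartile scaling, the replicate block and the library total as a covariate, and 0 to 5 with 1 tumour left out. Calls over all genes (418 lower and 529 higher) were, lower then higher, 1144 and 1318 with DESeq2, 3169 and 2809 with limma voom, 251 and 272 with no filter, 14 and 19 with the replicate block, 5 and 0 with the library total as a covariate (2193 genes at an unadjusted p under 0.05), 325 and 179 with upper quartile scaling, and 705 and 378 without both anti-CD4 3 and 4. With 1 tumour left out, lower calls ran from 31 (without anti-CD4 5) to 1480 (without PBS 1) and higher calls from 29 (without anti-CD4 2) to 1160 (without PBS 1). The cause of these differences was not tested, and the fits that leave tumours out also hold fewer tumours. Tumour numbers need not pair the tumours, since 2 of 6 same-numbered pairs had deviations correlated above 0.1, so the replicate block is given here only as a check. The log2 fold change of the summed heavy chain genes ran from -0.82 to -0.47 over its 21 alternatives. The -0.82 came from leaving out anti-CD4 3 and 4, which were chosen with their values known as high, so a lower estimate followed from that choice. The next lowest was -0.69, without anti-CD4 3. Sequence shared among H2 genes limits how the heavy chain values can be told apart, and the spread between tumours limits the calls.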
